A study of Mus musculus with 4 samples.

Results

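The genes described here are 32 genes that make cholesterol, sense it, take it up and export it, followed in gonadal white adipose tissue (gWAT) of obese mice with and without canagliflozin. They were chosen by gene name, as known members of this pathway, from the 45706 genes of an RNA sequencing table. The choice was made with earlier results of these data known. They were grouped as 19 synthesis enzymes, 7 regulators and uptake genes and 6 genes of efflux. Both groups were C57B6/N mice fed a high-fat diet (HFD) for 2 months, and the study describes such mice as male. The HFD group (2 mice) was the control. The HFD+Cana group (2 mice) also received the SGLT2 inhibitor canagliflozin, which makes the kidney pass glucose into the urine, in food at 0.03% by weight for 7 days. Chow-fed mice are not analysed here, so the comparison is of drug against no drug on the same diet. Values are TPM, in which reads are divided by transcript length and each sample adds up to 1000000, so that levels can be compared between genes. The study describes its samples as separate biological replicates, and each is taken here as a mouse. All 32 genes averaged 1 TPM or more and entered the test, which was limma on log2(TPM + 1) over 13788 genes with Benjamini-Hochberg adjustment (SE, standard error of the log2 fold change). With 2 mice against 2, an exact permutation test cannot give a two-sided p below 0.333.

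Cells make cholesterol from acetyl-CoA through mevalonate, prenyl diphosphates and squalene. The transcription factor SREBP2 switches on most genes of this route when sterols are scarce. It is held in the endoplasmic reticulum by SCAP together with the INSIG proteins when sterols are plentiful. When a cell holds too much cholesterol, oxysterols activate the liver X receptors (LXR), which switch on exporters. Adipocytes keep a large pool of free cholesterol on the surface of the lipid droplet and in the plasma membrane, and macrophages of obese fat clear the lipid of dying adipocytes.

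The tissue carried its defining transcripts, with the adipocyte hormone Adipoq at 3645 and 4124 TPM under HFD, against 3926 and 4551 under HFD+Cana. The adipocyte list summed to 47089 and 50822 TPM under HFD, against 47118 and 57761 under HFD+Cana. The largest part of this sum was Fabp4, at 27660 and 28927 TPM under HFD, against 27143 and 32473 under HFD+Cana. Of the 12 genes of the list, 3 had an unadjusted p under 0.05 in limma as lower and 1 as higher, against 5.45% and 5.32% of all genes tested. The lower ones were Plin1, Lep and Aqp7, and the higher one was Cfd. Lists of other cell types also differed between the groups. All 13 mesothelial markers were higher in both HFD+Cana mice than in both HFD mice, where 24.3% of all genes were. Their summed level was 50.4 to 63.8 TPM in HFD and 199 to 338 TPM in HFD+Cana. Among them, Cdh3 (0.518 and 0.827 TPM under HFD) and Bnc1 (1.03 and 0.701 TPM) reached a mean of 1 TPM through the HFD+Cana mice alone. The hepatocyte markers are given as levels only, because most of those tested reached a mean of 1 TPM through the HFD+Cana mice alone. Without Cyp2e1, which fat itself expresses, the hepatocyte list summed to 13.2 and 15.4 TPM under HFD, against 185 and 248 under HFD+Cana, and 5 of its genes were listed at 0 in both HFD mice. Red blood cell markers summed to 1756 and 5940 TPM under HFD, against 14391 and 6673 under HFD+Cana, and skeletal muscle markers to 244 and 278 TPM, against 114 and 197. Red blood cell RNA was thus high in 3 of the mice and low in HFD replicate 1. The muscle sum was mostly Acta1, at 220 and 195 TPM under HFD, against 99.3 and 187 under HFD+Cana. Of the other muscle genes, Tnnt3, Ckm, Myh4, Atp2a1, Mylpf and Tnnc2 were highest in HFD replicate 2. Tnnt3 was at 0.458 and 18.0 TPM under HFD, against 0.900 and 1.24 under HFD+Cana. Ckm was at 0 and 11.4 TPM under HFD, against 0.22 and 0.025 under HFD+Cana. Tnnc2 was lower in both HFD+Cana mice as well (5.92 and 14.0 TPM against 1.92 and 2.60 TPM). Pvalb was lower in both HFD+Cana mice (15.3 and 16.0 TPM against 7.51 and 4.84 TPM). Adipose progenitor markers summed to 2307 and 2295 TPM under HFD, against 3277 and 2508 under HFD+Cana. Of these 9 genes, 5 had an unadjusted p under 0.05 in limma as higher and 0 as lower, where 5.32% and 5.45% of all genes did. Endothelial markers summed to 1220 and 1232 TPM under HFD, against 962 and 1124 under HFD+Cana. The part of these cell types in the results below was not tested. In whole tissue, fewer cells of a type and less RNA per cell cannot be told apart.

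Most genes of cholesterol synthesis, 14 of 19, had lower levels in gWAT of both HFD+Cana mice than of both HFD mice, without passing the adjusted test, and the sterol sensor Insig1 had the largest difference of the 32 genes. The summed TPM of the 19 synthesis enzymes was 632 and 650 under HFD, against 504 and 483 under HFD+Cana, a ratio of group means of 0.770. Insig1 was at 0.457 of its HFD mean, while Insig2, its relative, was at 1.35 of its HFD mean. The exporters Abca1 and Abcg1 and the master regulator Srebf2 overlapped between the groups. No member passed an adjusted p of 0.05 in limma, where the share of all genes that passed was 0.0435% as higher and 0% as lower. All 6 genes that passed were hepatocyte markers with an HFD mean under 1 TPM. At an unadjusted p under 0.05 in limma, 14 of the 32 members were lower and 1 was higher, against 5.45% and 5.32% of all genes tested. In 18 members the HFD+Cana pair lay wholly below the HFD pair and in 4 wholly above it, against 19.8% and 24.3% of all genes. The log2 fold change was below 0 in 24 members, against 46.2% of all genes. The median log2 fold change was -0.40 for the synthesis enzymes, -0.09 for the regulators and uptake genes and 0.03 for the efflux genes, against 0.02 for all genes tested. The count of 14 lower members was smaller in every fit with 3 mice, and so was the share of all genes. In fits with 3 mice it was 5 when HFD replicate 1 was left out (2.76% of all genes), 11 when HFD replicate 2 was (4.46%), 10 when HFD+Cana replicate 1 was (4.51%) and 7 when HFD+Cana replicate 2 was (4.54%).

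**Figure D1:**
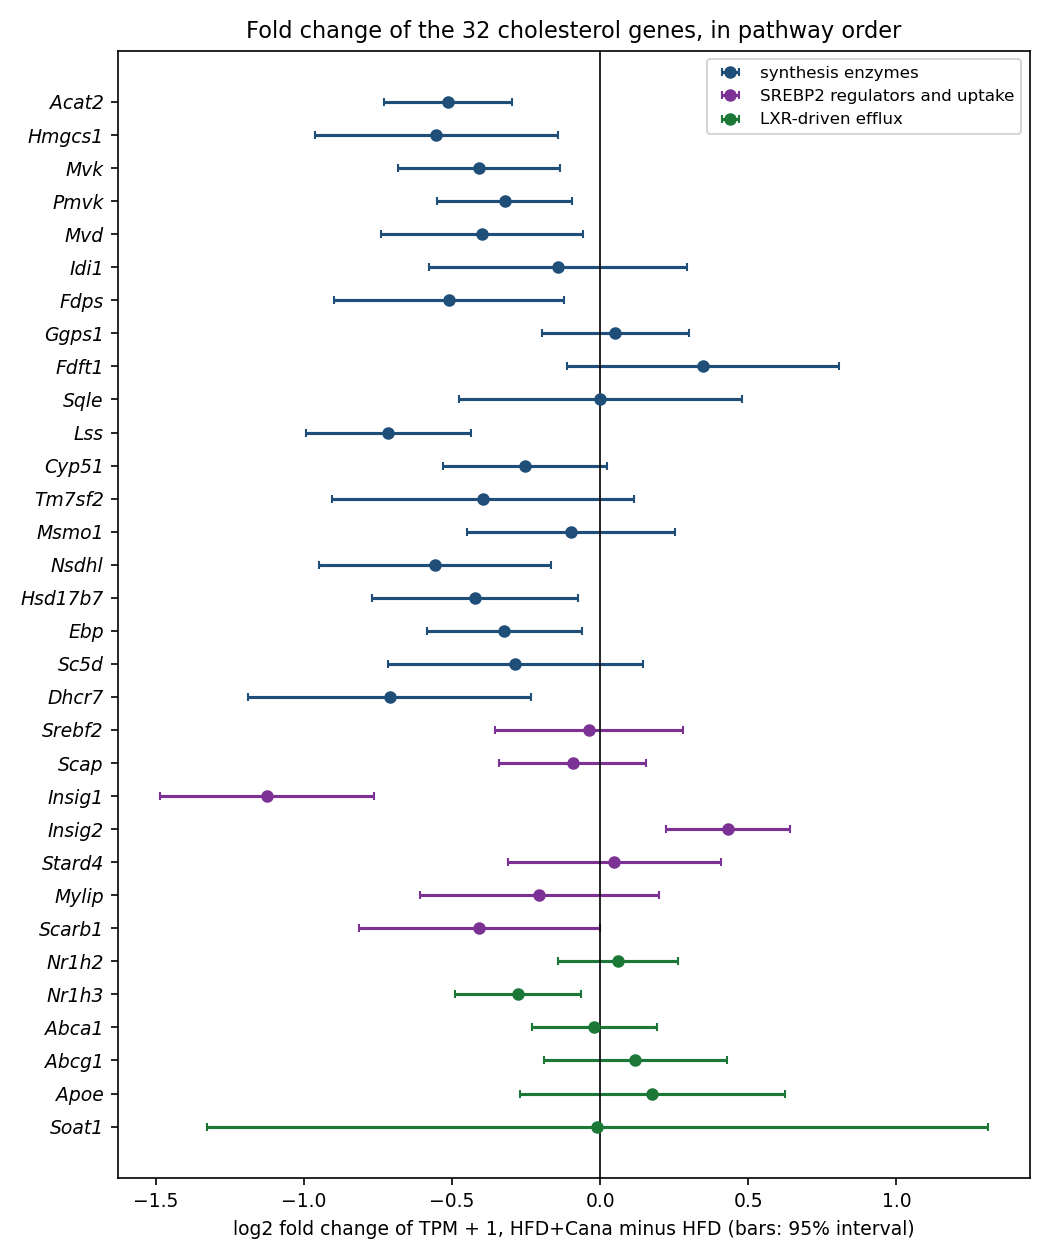
Log2 fold change of TPM + 1 (HFD+Cana minus HFD, horizontal axis) for each of the 32 genes (vertical axis, in pathway order), with points for the estimate from limma and bars for its 95% interval, coloured by functional group. Of the 19 synthesis enzymes, 16 lie below 0, Insig1 is farthest to the left at -1.13, and Insig2 lies to the right at 0.43.

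The early enzymes carry acetyl-CoA to prenyl diphosphates, the branch that also feeds protein prenylation, dolichol and ubiquinone. Of these 8 genes, 6 were lower at an unadjusted p under 0.05 and 0 were higher, and the same 6 did not overlap between the groups, where 5.45% and 19.8% of all genes were lower by these measures. Acat2, the cytosolic thiolase that joins acetyl-CoA units, was at 50.7 and 52.2 TPM under HFD, against 34.6 and 36.9 under HFD+Cana (log2 fold change -0.51, SE 0.082, limma adjusted p = 0.225). Its neighbouring paralogue Acat3, which may share reads with it, had at most 3.13 TPM in any mouse. Hmgcs1, the cytosolic HMG-CoA synthase, was with Pmvk among the most abundant of the enzymes and was at 83.0 and 111 TPM under HFD, against 63.8 and 66.5 under HFD+Cana (log2 fold change -0.55, SE 0.16, limma adjusted p = 0.362). The HFD mice differed more from each other in Hmgcs1 than the HFD+Cana mice did, and HFD replicate 2 was the highest. Without HFD replicate 2 its log2 fold change was -0.34. The kinases of mevalonate and of phosphomevalonate followed the same order. Mvk was at 32.1 and 31.4 TPM under HFD, against 25.5 and 22.0 under HFD+Cana, and Pmvk had 85.2 and 77.9 TPM against 63.6 and 66.4 TPM. Their log2 fold changes were -0.41 (SE 0.10) and -0.32 (SE 0.087). Mvd, the decarboxylase that yields isopentenyl diphosphate, was at 9.71 and 8.70 TPM under HFD, against 7.31 and 6.20 under HFD+Cana. Fdps, which makes farnesyl diphosphate, was at 59.2 and 56.8 TPM under HFD, against 46.4 and 35.3 under HFD+Cana, so that the HFD+Cana mice lay apart from each other as well as below the HFD mice, and its log2 fold change of -0.51 (SE 0.15) was -0.32 when HFD+Cana replicate 2 was left out. The remaining pair of this branch overlapped. Idi1, the isopentenyl diphosphate isomerase, was at 18.5 and 18.6 TPM under HFD, against 19.7 and 14.3 under HFD+Cana, with a log2 fold change between -0.58 and 0.29 (95% interval). Ggps1, which makes geranylgeranyl diphosphate and thus leads away from sterols, was at 16.8 and 17.2 TPM under HFD, against 18.5 and 16.8 under HFD+Cana, with an interval from -0.20 to 0.30.

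The later 11 enzymes turn farnesyl diphosphate into squalene, close the sterol ring and trim it to cholesterol. Of these, 5 were lower at an unadjusted p under 0.05 and 0 were higher, and 8 were lower in both HFD+Cana mice than in both HFD mice, against the same shares of all genes. Lss, the lanosterol synthase that closes the ring (chromosome 10, 76531588 to 76557138, GRCm38), had the smallest p of the synthesis enzymes. It was at 15.7 and 16.0 TPM under HFD, against 9.88 and 8.68 under HFD+Cana (log2 fold change -0.71, SE 0.11, limma adjusted p = 0.208). Dhcr7, which reduces the last double bond on a route to cholesterol, was at 18.0 and 14.0 TPM under HFD, against 10.6 and 8.18 under HFD+Cana (log2 fold change -0.71, SE 0.18, limma adjusted p = 0.324). Both genes were at 0.59 of their HFD mean. The gap between the groups was wider than the spread within either group for Lss, but for Dhcr7 it was narrower than the spread between the HFD mice. Between these steps, methyl groups are removed from the ring. Nsdhl, a dehydrogenase of this step, was at 46.8 and 37.1 TPM under HFD, against 30.3 and 25.9 under HFD+Cana. Hsd17b7, the ketoreductase that follows it, was at 6.02 and 5.18 TPM under HFD, against 3.89 and 3.95 under HFD+Cana. The gap between the groups was wider than the spread within either group for Hsd17b7, but for Nsdhl it was narrower than the spread between the HFD mice. Ebp, a sterol isomerase, was at 62.1 and 54.8 TPM under HFD, against 44.9 and 48.0 under HFD+Cana. The log2 fold changes were -0.56 (SE 0.15) for Nsdhl, -0.42 (SE 0.13) for Hsd17b7 and -0.32 (SE 0.099) for Ebp. Cyp51, the lanosterol demethylase, was at 14.6 and 12.8 TPM under HFD, against 11.3 and 11.3 under HFD+Cana. The sterol reductase Tm7sf2 had 13.6 and 11.2 TPM against 10.9 and 7.70 TPM, and the desaturase Sc5d had 55.9 and 75.8 TPM against 51.3 and 55.3 TPM. In these 3 genes the groups did not overlap, but the 95% intervals of the log2 fold change included 0, and the log2 fold change of Sc5d, -0.29, was -0.07 when HFD replicate 2 was left out.

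A few enzymes stood outside this order. Fdft1, the squalene synthase that commits farnesyl diphosphate to sterols, was the only synthesis enzyme of the 19 that was higher in both HFD+Cana mice, with 21.6 and 26.5 TPM against 16.2 and 21.3 TPM in HFD. Its log2 fold change was 0.35 (SE 0.17, limma adjusted p = 0.539, unadjusted p = 0.107). It was 0.16 when HFD replicate 1 was left out, 0.21 when HFD+Cana replicate 2 was and 0.54 when HFD replicate 2 was. In the last of these fits the unadjusted p in limma was 0.0447, and with the replicate number as a block that p was 0.0124. Fdft1 shares 774 of its 4227 exon bases with the cathepsin gene Ctsb on the opposite strand, which was at 1296 and 1063 TPM under HFD, against 1197 and 917 under HFD+Cana. The library kit keeps strand, but no source used here says whether the counting used it. Sqle, the squalene epoxidase, was at 5.07 and 5.39 TPM under HFD, against 6.22 and 4.38 under HFD+Cana, so that the HFD+Cana mice were the highest and the lowest of the 4. Msmo1, the methylsterol oxidase, was at 23.3 and 22.1 TPM under HFD, against 23.7 and 18.9 under HFD+Cana in the same arrangement. The interval of the log2 fold change ran from -0.48 to 0.48 for Sqle and from -0.45 to 0.25 for Msmo1, so a difference of the size seen in most other enzymes was within it for both. The minimum of the 4 mice fell on HFD+Cana replicate 2 in 11 of the 19 enzymes and on HFD+Cana replicate 1 in 6, while the maximum fell on HFD replicate 1 in 10. Idi1 and Msmo1, with log2 fold changes below 0 and groups that overlapped, were above 0 without HFD+Cana replicate 2. The number of enzymes lower at an unadjusted p under 0.05 in limma was 11 of 19, or 57.9%, against 5.45% of all genes tested. This number was smaller in every fit with 3 mice, and so was the share of all genes. The median log2 fold change of the 19 enzymes, -0.40, was -0.33 when HFD replicate 1 was left out and -0.32 when HFD+Cana replicate 2 was. Some genes share exon bases with others, namely Fdps with the predicted gene Gm43738 (1124 of 4208 bases), which had at most 0.0303 TPM in any mouse, Tm7sf2 with Vps51 on the same strand (532 of 4403 bases) and Cyp51 with Akap9 and Ggps1 with Arid4b on opposite strands.

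**Figure D2:**
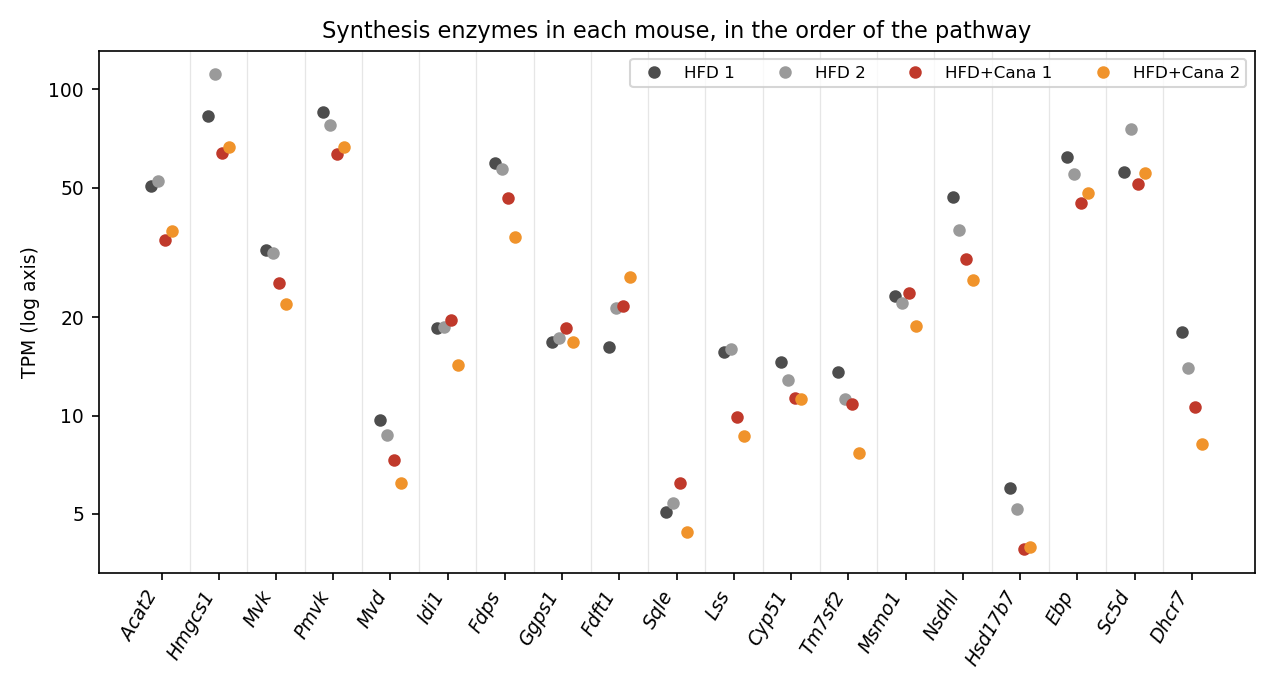
TPM on a log axis (vertical) of each synthesis enzyme (horizontal, in the order of the pathway), with 1 point for each of the 4 mice (grey for HFD, red and orange for HFD+Cana). Both HFD+Cana mice lie below both HFD mice in 14 of the 19 enzymes, above them in Fdft1, and overlap with them in Idi1, Ggps1, Sqle and Msmo1.

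The regulators did not share a direction. Insig1, which anchors SCAP in the endoplasmic reticulum, is named after its induction by insulin and is itself a target of SREBP. Its gene spans chromosome 5, 28071363 to 28078662 (GRCm38), and it was at 173 and 155 TPM under HFD, against 83.2 and 66.8 under HFD+Cana. The HFD mice were thus both far above the HFD+Cana mice, and the log2 fold change was -1.13 (SE 0.14, 95% interval -1.49 to -0.76, adjusted p = 0.171 from limma). By p it was rank 50 of the 13788 genes tested. Leaving out single mice, its log2 fold change ran from -1.28 to -0.97. Insig2 encodes the other anchor, which does not depend on SREBP, and in mouse liver a transcript of Insig2 is known to be lowered by insulin. Its gene spans chromosome 1, 121304353 to 121332589 (GRCm38), and it was at 53.1 and 49.8 TPM under HFD, against 69.2 and 70.2 under HFD+Cana. It was the only member that was higher at an unadjusted p under 0.05, with a log2 fold change of 0.43 (SE 0.080, limma adjusted p = 0.254). Leaving out single mice, the value ran from 0.39 to 0.48. The ratio of Insig1 to Insig2 within a mouse, which cancels the scaling of the sample, was 3.27 and 3.11 in HFD and 1.20 and 0.952 in HFD+Cana. The sum of both anchors was thus mostly Insig1 in the HFD mice and nearly even in the HFD+Cana mice.

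Srebf2, which encodes SREBP2, was at 15.0 and 14.5 TPM under HFD, against 15.8 and 13.1 under HFD+Cana, a log2 fold change of -0.04 with a 95% interval from -0.35 to 0.28. Scap, its escort protein, was at 19.96 and 19.3 TPM under HFD, against 19.3 and 17.5 under HFD+Cana, with an interval from -0.34 to 0.16. Stard4, a soluble carrier of sterols, had between 4.81 and 5.71 TPM in all 4 mice. These measure the RNA of the regulators and not the cleavage of SREBP2, on which its activity depends.

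**Figure D3:**
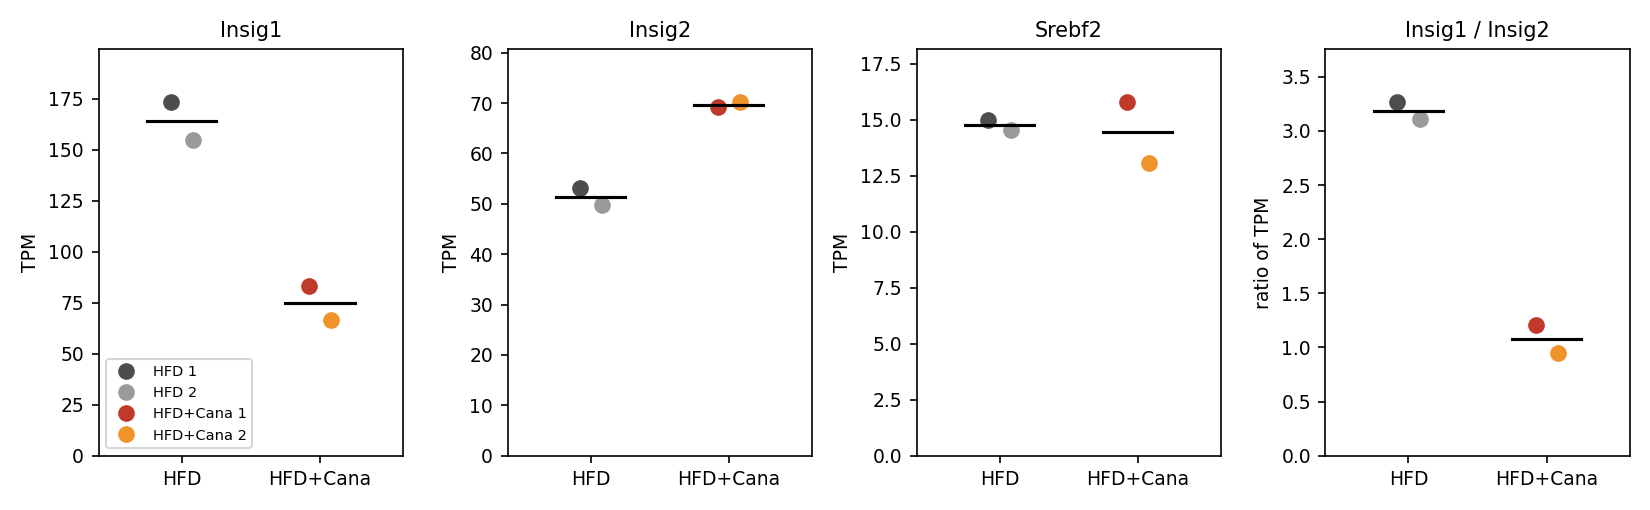
TPM (vertical axis, from 0) of Insig1, Insig2 and Srebf2 and the ratio of Insig1 to Insig2 in each mouse by group (horizontal axis), with points for mice and lines for group means. Insig1 and Insig2 do not overlap between the groups and lie in opposite order, the ratio is 3.11 to 3.27 in HFD and 0.952 to 1.20 in HFD+Cana, and Srebf2 overlaps.

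The stretches before the start sites of Insig1, Insig2 and Hmgcs1 are shown because Insig1 and Insig2 were the regulators with opposite differences and Hmgcs1 was the member whose stretch held a sterol regulatory element. Each is the 250 bases before a start site in RefSeq (GRCm38.p6), at chr5:28071162-28071411 on the plus strand, chr1:121332590-121332839 on the minus strand and chr13:119690101-119690350 on the plus strand, written 5′ to 3′ in the direction of the gene. Capitals mark, on either strand, the CCAAT box (CCAAT), the E-box (CACGTG, marked and found in Insig1 only), the GC box (GGGCGG, marked in Insig1, not found in the Insig2 stretch shown and left unmarked in Hmgcs1), and the sterol regulatory element (TCACNCCAC) in Hmgcs1.
Insig1: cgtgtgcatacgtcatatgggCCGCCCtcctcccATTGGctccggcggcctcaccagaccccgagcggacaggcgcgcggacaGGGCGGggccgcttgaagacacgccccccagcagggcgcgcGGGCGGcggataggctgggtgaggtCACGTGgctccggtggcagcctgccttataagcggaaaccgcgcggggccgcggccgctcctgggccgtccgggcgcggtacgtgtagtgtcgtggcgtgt
Insig2: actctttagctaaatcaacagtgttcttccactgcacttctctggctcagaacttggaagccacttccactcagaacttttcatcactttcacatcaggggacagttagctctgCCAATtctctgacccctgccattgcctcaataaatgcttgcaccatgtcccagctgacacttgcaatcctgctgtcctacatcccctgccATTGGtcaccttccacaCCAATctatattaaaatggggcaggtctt
Hmgcs1: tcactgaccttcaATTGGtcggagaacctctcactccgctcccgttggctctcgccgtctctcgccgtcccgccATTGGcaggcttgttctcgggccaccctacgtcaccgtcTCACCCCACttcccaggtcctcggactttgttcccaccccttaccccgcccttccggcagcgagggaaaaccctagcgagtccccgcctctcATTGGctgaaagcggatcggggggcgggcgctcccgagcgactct
The Hmgcs1 stretch held the letters TCACNCCAC from -137 to -129 before the start, and it was the only one of 35 such stretches, for 26 members found in RefSeq, that held them. Among all 32851 stretches in RefSeq 1.05% held them. The 10-letter form of the sterol regulatory element, which contains the shorter one, was in none of the members' stretches and in 0.0731% of all. The CCAAT box was in 57.1% of the members' stretches and in 33.8% of all, and the GC box in 62.9% and 32.7%. The E-box was in 17.1% and 6.02%, and Insig1 held it from -101 to -96. The 15-letter direct repeat DR4, a form of the LXR element, was in none of the members' stretches and in 0.0639% of all. Insig2 has 3 start sites in RefSeq, and the stretch shown belongs to the one at the start of the annotated gene. Such matches describe letters only.

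Among the uptake genes, Scarb1 encodes the scavenger receptor that takes up cholesterol from high-density lipoprotein and is the most abundant gene of this group. It was at 195 and 147 TPM under HFD, against 126 and 130 under HFD+Cana (log2 fold change -0.41, SE 0.15, limma adjusted p = 0.462). The HFD mice differed more from each other than HFD replicate 2 did from the HFD+Cana mice, and the log2 fold change was -0.20 without HFD replicate 1 and -0.61 without HFD replicate 2. Its unadjusted p in limma was 0.0495, and it missed 0.05 with a pseudocount of 5 (0.0504), with no filter (0.0625), under the filter of 5 TPM (0.0508), with quantile normalization (0.0502), and with eBayes untrended (0.0682) or robust (0.0511). Mylip, a ubiquitin ligase induced by LXR that sends lipoprotein receptors to degradation, was at 77.9 and 59.2 TPM under HFD, against 56.3 and 61.3 under HFD+Cana, and the groups overlapped.

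The genes of the efflux arm did not share a direction. Of the LXR genes, Nr1h3 (LXR alpha, the form of fat, liver and macrophages) was at 109 and 106 TPM under HFD, against 85.6 and 91.6 under HFD+Cana (log2 fold change -0.28, SE 0.081, limma adjusted p = 0.375). It was the only gene of this group under an unadjusted p of 0.05. Nr1h2 (LXR beta, found in most cells) was at 67.1 and 66.7 TPM under HFD, against 71.6 and 68.1 under HFD+Cana, with a 95% interval of the log2 fold change from -0.14 to 0.26. The ratio of Nr1h3 to Nr1h2 within a mouse was 1.63 and 1.59 in HFD and 1.20 and 1.35 in HFD+Cana.

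The exporters driven by LXR overlapped between the groups. Abca1, which loads cholesterol onto lipid-poor apolipoprotein, was at 60.4 and 64.7 TPM under HFD, against 62.0 and 61.3 under HFD+Cana, a log2 fold change of -0.02 with a 95% interval from -0.23 to 0.19. Abcg1, which passes cholesterol to mature lipoprotein, was at 49.5 and 42.3 TPM under HFD, against 52.8 and 47.0 under HFD+Cana, with an interval from -0.19 to 0.43. Apoe, the apolipoprotein that accepts cholesterol and is made by adipocytes and macrophages, was the most abundant of the 32 genes, at 7053 and 6259 TPM under HFD, against 7758 and 7268 under HFD+Cana. The groups did not overlap in Apoe, but the gap between their nearest mice was smaller than the SD of either group, and its log2 fold change was 0.18 (SE 0.17, limma adjusted p = 0.740) and was 0.090 without HFD replicate 2.

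Soat1 separated the mice by replicate number and not by group. It esterifies cholesterol for storage in droplets and is prominent in macrophages. It was at 34.3 and 16.7 TPM under HFD, against 35.7 and 15.8 under HFD+Cana, so that replicate 1 of either group was more than 2 times replicate 2 and the group means were 25.5 and 25.8 TPM. The 95% interval of its log2 fold change, from -1.33 to 1.31, was the widest of the 32. Without Lpl, which adipocytes also express, the 16 macrophage markers summed to 4848 and 3386 TPM under HFD, against 5902 and 3389 under HFD+Cana, and all 16 were higher in replicate 1 than in replicate 2 in both groups. Adgre1 (F4/80), which marks mature mouse macrophages, was at 95.7 and 59.7 TPM under HFD, against 96.6 and 48.3 under HFD+Cana. The part of macrophages in the Soat1 values was not tested.

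**Figure D4:**
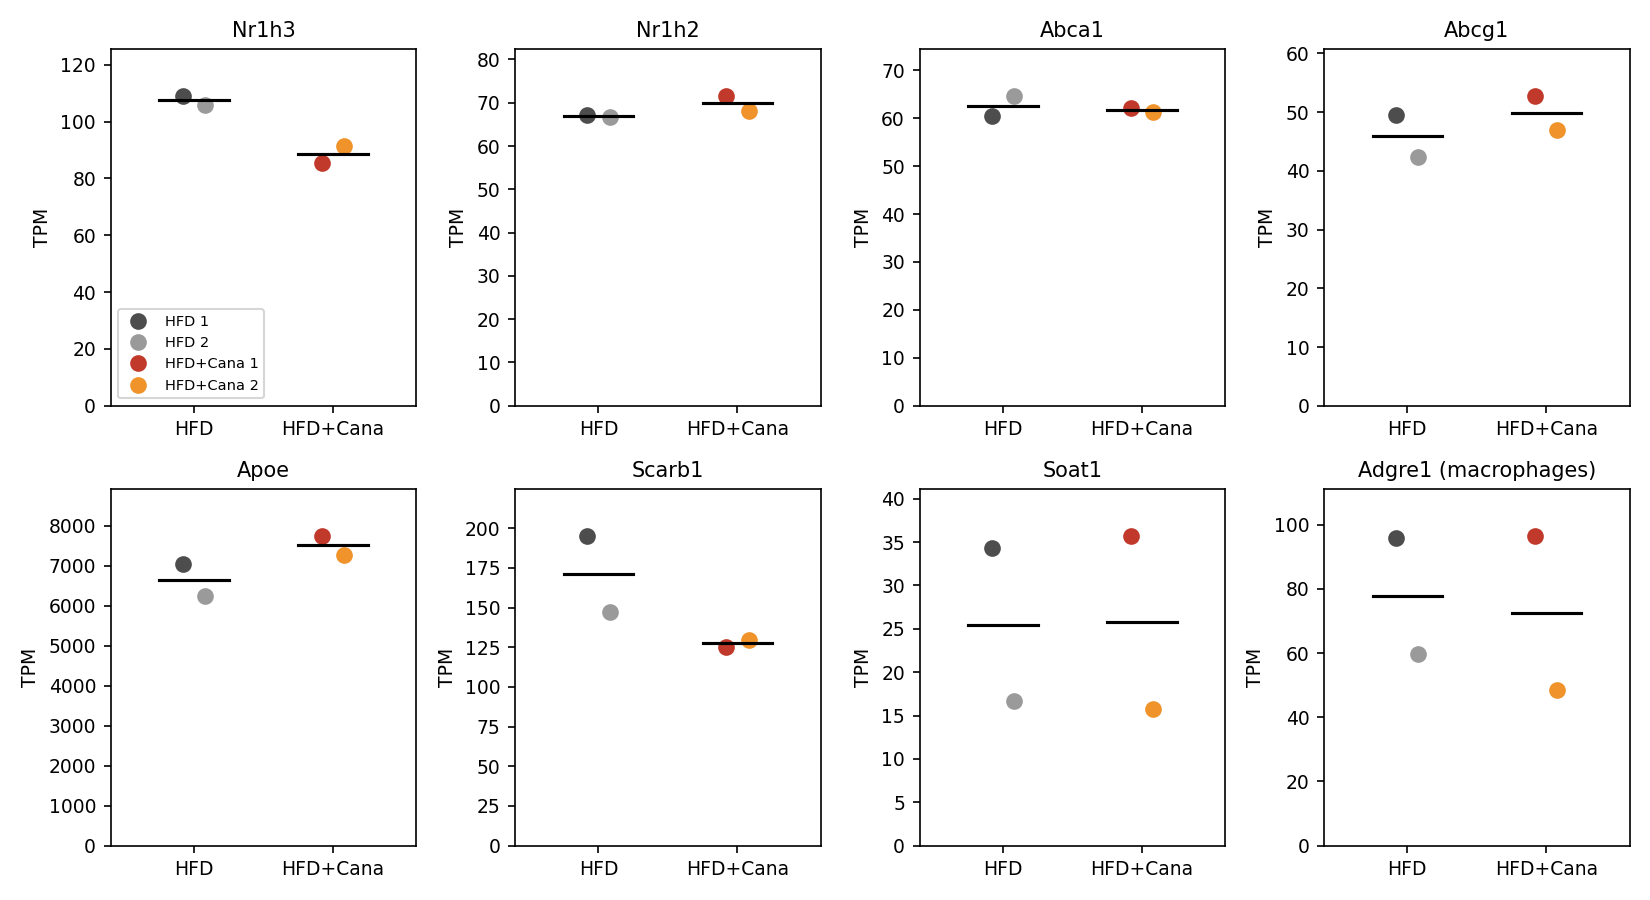
TPM (vertical axis, from 0) in each mouse by group (horizontal axis) for Nr1h3, Nr1h2, Abca1, Abcg1, Apoe, Scarb1 and Soat1, with the macrophage marker Adgre1 beside them, as points for mice and lines for group means. Nr1h3 and Scarb1 are lower in both HFD+Cana mice, Abca1 and Abcg1 overlap, and Soat1 and Adgre1 are high in replicate 1 and low in replicate 2 of both groups.

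Genes around the pathway were counted over lists chosen by function. Of 14 genes of the isoprenoid branch (prenylation, dolichol and ubiquinone), 1 was lower and 0 higher by the unadjusted limit of 0.05 in limma, a share near the 5.45% of all genes that were lower, with a median log2 fold change of -0.07. That gene was Fntb, the beta subunit of farnesyltransferase, at 16.1 and 16.8 TPM under HFD, against 10.9 and 11.2 under HFD+Cana (log2 fold change -0.54, SE 0.090, limma adjusted p = 0.238). Its alpha partner Fnta had between 51.8 and 56.2 TPM in all 4 mice. Of 11 genes that retain, cleave or turn over the SREBP complex, 1 was lower and 0 were higher, against the same background, with a median of -0.04. It was Srebf1, which encodes SREBP1 and is induced by insulin and by LXR, at 108 and 117 TPM under HFD, against 79.9 and 69.1 under HFD+Cana (log2 fold change -0.60, SE 0.11, limma adjusted p = 0.244). The ratio of Srebf1 to Srebf2 within a mouse was 7.23 and 8.07 in HFD and 5.07 and 5.28 in HFD+Cana. The proteases that release SREBP lay in narrow ranges over the 4 mice, with Mbtps1 between 49.7 and 52.1 TPM and Mbtps2 between 8.31 and 8.86 TPM.

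Of 16 tested genes that move or release cholesterol inside the cell, 4 were lower and 0 higher by the unadjusted limit of 0.05, against 5.45% and 5.32% of all genes, with a median log2 fold change of -0.12. Gramd1a and Gramd1b encode Aster proteins, which carry cholesterol from the plasma membrane to the endoplasmic reticulum. Gramd1a was at 63.9 and 55.9 TPM under HFD, against 44.2 and 41.2 under HFD+Cana, and Gramd1b had 24.1 and 19.4 TPM against 15.4 and 16.5 TPM. Npc2, which takes cholesterol out of the lysosome, was at 739 and 662 TPM under HFD, against 535 and 526 under HFD+Cana. The lipoprotein receptor Vldlr was at 55.9 and 46.9 TPM under HFD, against 32.004 and 37.4 under HFD+Cana. Their log2 fold changes lay between -0.55 for Vldlr and -0.40 for Npc2, and their adjusted p-values between 0.270 for Gramd1a and 0.409 for Gramd1b in limma. Of 10 tested genes listed as LXR targets and partners, Srebf1 was lower. Nr1h4 (the bile acid receptor FXR) was at 0.794 and 0.980 TPM under HFD, against 1.57 and 1.79 under HFD+Cana, and reached a mean of 1 TPM only through the HFD+Cana mice, so its difference is not counted. The phospholipid transfer protein Pltp, the acyltransferase Lpcat3 and the desaturase Scd1, which LXR induces, did not reach an unadjusted p of 0.05, with log2 fold changes of -0.23 (SE 0.16), -0.15 (SE 0.079) and -0.03 (SE 0.25). Of 3 tested enzymes that make or clear oxysterols, 0 were lower and 0 higher, among them the sterol hydroxylase Cyp27a1 at 73.8 and 82.8 TPM under HFD, against 84.9 and 87.6 under HFD+Cana.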

How the data were processed

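The 4 gWAT libraries were made with a stranded kit for polyadenylated RNA and read from both ends over 150 bases. The authors ran nf-core/rnaseq 3.12.0 in its default setting on nextflow 23.10.0 and deposited TPM per gene from Salmon. GRCm38, mm10 and R 4.3.2 stand in the processing notes of the submitters, and no source used here gives the annotation release. TPM keeps no depth, so read numbers are unknown and neither counting intervals nor a count test could be had. Genes above 0 TPM numbered 19884 to 21129 per sample.

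Genes averaging 1 TPM or more (13788) were fitted as log2(TPM + 1) in limma 3.58.1 under R 4.3.3 (eBayes with trend, group as the only term), with Benjamini-Hochberg adjustment over all of them and a threshold of 0.05. This scale understates the fold changes of low genes. The fit was also run on simulated data with independent noise for each gene. That setting lacks the shifts in cell type markers seen between these mice, so no support is drawn from it. Positions and exon overlaps came from GENCODE M21 (GRCm38, 45143 gene IDs found) and promoters from RefSeq (GRCm38.p6). Members and lists were chosen with earlier results of these data known. Full values are given for members under an unadjusted p of 0.05 or with groups apart, for the main regulators and exporters, and for up to 4 genes under that p in each other pathway list. Other genes named were chosen after their values were seen. Further genes of the pathway are not analysed here. Alternatives were pseudocounts of 0.1 and 5, no filter or a mean of 5 TPM, quantile or median-of-ratios scaling, removal of mitochondrial DNA genes, eBayes untrended or robust, the replicate number as a block, and leaving out each mouse. Python 3.11.15, pandas 2.3.3 and matplotlib 3.10.9 made the tables and plots.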

Additional observations from a re-analysis of the deposited data

How the results depend on the processing

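With 2 mice per group and no record of depth, the spread between mice limits every value. No member passed an adjusted p of 0.05 in limma under any alternative, where the lowest adjusted p was 0.109, for Insig1 with the replicate block. With a pseudocount of 5 the median of the synthesis enzymes was -0.29 in place of -0.40. With quantile normalization 2 members were higher in both HFD+Cana mice (21.2% of all genes), in place of 4 (24.3%). The replicate numbers are not stated to pair the mice, and with the number as a block 2 members were higher at an unadjusted p under 0.05, in place of 1, and 15 were lower, in place of 14, while the shares of all genes were 7.72% and 7.96%. Members lower by that p numbered 12 with no filter (4.12% of all genes) and under the filter of 5 TPM (6.24%). They numbered 13 with a pseudocount of 5 (5.44%) and with eBayes untrended (4.82%) or robust (5.43%). There were 14 with a pseudocount of 0.1 (5.49%), quantile normalization (5.84%) and removal of mitochondrial DNA genes (5.37%), and 15 with median-of-ratios scaling (6.47%). Deviations of same-numbered mice correlated at 0.18 over 13788 genes.

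The filters, the eBayes options and the block leave fold changes as they are. Among the other alternatives that keep all mice, signs differed from the reported ones in 5 values. Sqle was -0.0017 with a pseudocount of 0.1, -0.062 with quantile normalization and -0.020 with median-of-ratios scaling. Under quantile normalization Stard4 was -0.011 and Abca1 was 0.010.

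Leaving out each mouse in turn, members lower at an unadjusted p under 0.05 numbered 5 to 11 (2.76% to 4.54% of all genes). Synthesis enzymes among them numbered 4 to 9, against the same shares. Higher members numbered 1 to 2 (2.90% to 4.78% of all genes). Members with groups apart numbered 4 to 12 as higher (36.0% to 43.5% of all genes) and 19 to 23 as lower (29.9% to 38.4%), since fewer mice overlap less. The median ran from -0.41 to -0.32 for synthesis enzymes and from -0.0011 to 0.15 for efflux genes. The log2 fold change ran from -0.21 to 0.21 for Sqle, -0.039 to 0.14 for Stard4, -0.57 to 0.56 for Soat1, -0.068 to 0.030 for Abca1, -0.013 to 0.12 for Ggps1, -0.36 to 0.077 for Idi1, -0.25 to 0.061 for Msmo1 and -0.16 to 0.091 for Srebf2. The causes of these shifts were not tested.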
